A study of Mus musculus with 6 samples.

Results

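The genes described here encode, in the nucleus, the protein subunits of the mitochondrial oxidative phosphorylation system. They were chosen by name, as every gene whose symbol begins with Ndufa, Ndufb, Ndufc, Ndufs, Ndufv, Uqcr, Cox4 to Cox8 or Atp5, together with Sdha, Sdhb, Sdhc and Sdhd, and without the assembly factors of the Ndufaf and Sdhaf families. The RefSeq gene table holds 19 pseudogenes and 88 other genes with such symbols, and 85 were matched to 114 probes on the array. Of these 85 genes, 82 passed the filter on dim probes and were tested, among 25304 names tested in all, of which 15181 are gene symbols. The 3 that were not tested are the tissue-restricted complex IV genes Cox8b and Cox8c, above background on no array, and Cox7b2, above background on 1 phenobarbital array. The protein-coding symbols Ndufb1, Ndufb4b and Ndufb4c were matched to no probe. Each of the 82 tested members was well above background on all 6 arrays.

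The study asked how a drug acting on GABA-A receptors, given to the mother, bears on progenitor cells of the embryonic cortex. C57BL/6N dams received saline (control) or phenobarbital, a barbiturate, in saline (8 mg/mL, at 80 mg/kg), injected at intervals of 6 h over embryonic days 10 and 11. The cortex of embryos at E12 by the protocol, or E12.5 by the sample labels, was dissociated and plated, and RNA was isolated 4 h later. Each group had 3 arrays, each hybridised with labelled RNA made from 0.2 µg, and no label says whether the replicates are separate litters or cultures, so a p-value here stands for the spread among these arrays alone, which may be technical.

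Oxidative phosphorylation passes electrons from NADH and succinate to oxygen through complexes I to IV of the inner mitochondrial membrane, and complex V, the ATP synthase, uses the proton gradient built by complexes I, III and IV to make ATP. Complex I oxidises NADH, complex II oxidises succinate and is also an enzyme of the citric acid cycle, complex III passes electrons from ubiquinol to cytochrome c, and complex IV, cytochrome c oxidase, reduces oxygen. Apart from complex II, each combines the nuclear-encoded subunits described here with a few subunits encoded in mitochondrial DNA. Cortical progenitors are known to rely heavily on glycolysis and to increase mitochondrial respiration as they become neurons.

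Signals are given as log2 of the processed signal minus the 75th percentile of the array, so that 0 is the 75th percentile. Each log2 fold change is the phenobarbital mean minus the control mean and is given with its standard error (SE) from the limma fit, n = 3 arrays per group unless stated otherwise. A gene is said to have risen or fallen where its Benjamini-Hochberg adjusted p over all 25304 names was below 0.05. Levels are compared between arrays for a gene, never between genes, whose probes differ in brightness. In these RNA samples, fewer cells of a type and less RNA per cell cannot be told apart.

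Phenobarbital arrays carried slightly less signal for most subunits, and few members passed the test in either direction. Those that rose were 4 genes of complex I, 1 of complex III and 1 of complex V. Of the 82 members, 8 fell (9.76%), 6 rose (7.32%) and 68 did not pass. Over all names tested 10.5% fell and 6.24% rose, 16.7% in either direction, so the shares of members that passed were close to the share over all names in this fit. That closeness depended on the fit and on the brightness of the probes: with a trended variance prior 39% of members and 14.4% of all names fell, with normexp 25.6% and 18.7%, and among probes with a mean signal of 4 or more (on the scale described above) 10.6% of members and 24.6% of all such names. At an unadjusted p below 0.05, 25.4% of all names were lower and 10.3% higher, against 43 and 6 of the 82 members. In sign, 75 members had a negative and 7 a positive log2 fold change, against 68% negative over all names. With quantile normalization 56 members were negative and 26 positive. All phenobarbital arrays with a value lay below all control arrays for 53 members (64.6%, against 32.4% of all names), all above them for 7 (8.54%, against 11.7%), and the groups overlapped for 22. Among the 53, Ndufb9 had a value on only 2 phenobarbital arrays. The median log2 fold change was -0.31 over the members and -0.16 over all names, a difference of -0.14. The split of calls depended on the scaling: 6 members rose and 2 fell with quantile normalization, 6 rose and 4 fell when that percentile was computed from probes detected on all arrays, and 6 rose and 21 fell with normexp. The difference between the medians was -0.08 without phenobarbital replicate 3 and -0.02 after quantile normalization.

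**Figure D1:**
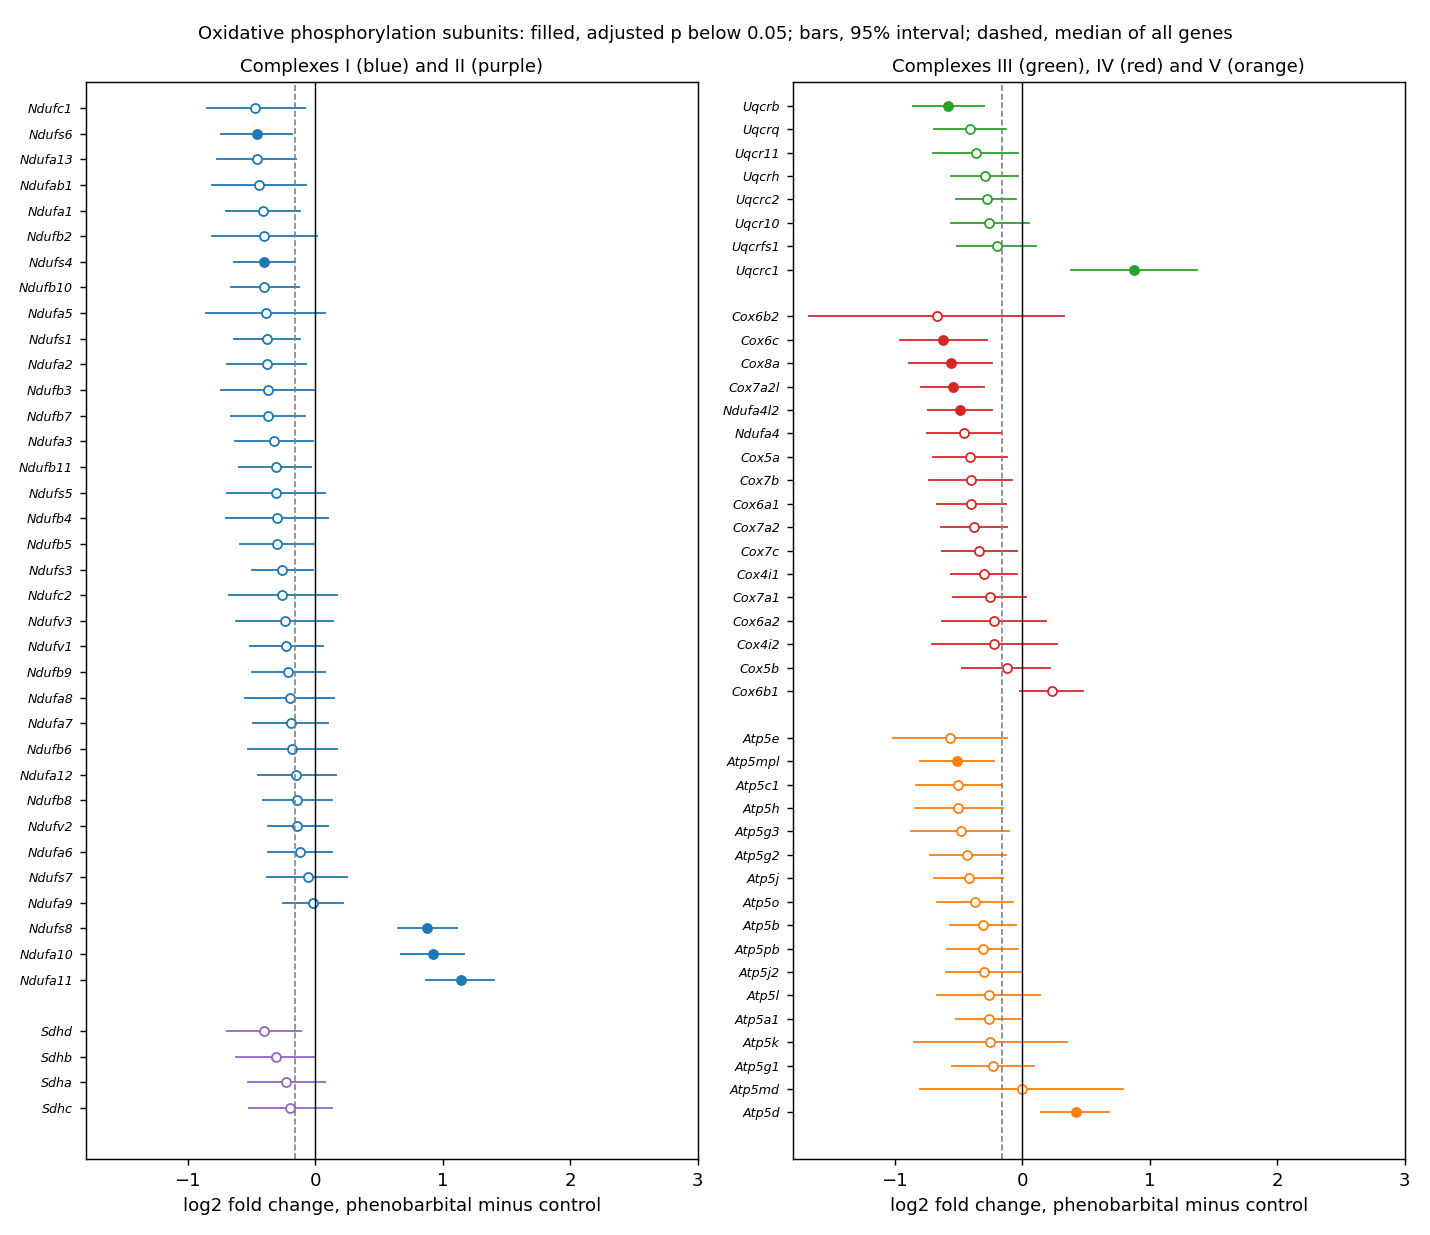
Log2 fold change (phenobarbital minus control, horizontal axis) of 81 of the 82 tested subunits, grouped and coloured by complex. Points are the limma estimates, bars their 95% intervals, filled points passed at an adjusted p below 0.05, and the dashed line is the median of all names, -0.16. Complex I holds 3 of the 5 filled points on the right, and complex IV holds 4 of the 8 on the left.

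Many promoters of respiratory chain genes are known to carry sites for the transcription factors NRF1, GABP, YY1 and the estrogen-related receptors, so the start sites of the members were searched for them. RefSeq promoter windows on GRCm38.p6, from 250 bases before to 50 bases after a start site, were matched for 69 of the 85 members (74 windows of 300 bases). The letters searched, on both strands, were GCGCATGC for NRF1, CCGGAAG for GABP, AAGATGGCG for YY1 and TCAAGGTCA for the estrogen-related receptors, and in no window did hits of different motifs overlap. The NRF1 letters were in 13.5% of the member windows and in 2.71% of all 32851 windows of that length, the GABP letters in 23% and 8.86%, the YY1 letters in 9.46% and 1.4%, and the estrogen-related receptor letters in 2.7% and 0.423%. Counted by gene, at least 1 of the 4 was in a window of 42% of the 69 members, against 14% of all 27025 genes. The YY1 letters mostly lay in one place in the members that held them: in 6 of 7 windows (85.7%) they lay after the start site and on the gene's own strand, as in 209 of all 461 windows that hold the letters (45.3%).

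The windows that hold one of these motifs among the members that rose or fell are shown, 5′ to 3′ on the gene's strand with the motif in capitals. Ndufa11 and Uqcrc1 carry the NRF1 letters on both strands of a palindrome. That of Ndufa11 begins 60 bases before the start site, within the 100 bases before it at chr17:56717662-56717761, plus strand. The others are stretches of 30 bases, at chr9:108936667-108936696 (plus strand) for Uqcrc1, chr19:3912741-3912770 (minus) for Ndufs8, chr19:7217603-7217632 and chr19:7217567-7217596 (both minus) for the 2 hits of Cox8a, chr13:73328433-73328462 (minus) for Ndufs6 and chr13:114388045-114388074 (minus) for Ndufs4. 
Ndufa11, rose, NRF1: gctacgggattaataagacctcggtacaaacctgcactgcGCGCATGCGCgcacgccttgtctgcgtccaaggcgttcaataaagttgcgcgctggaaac
Uqcrc1, rose, NRF1: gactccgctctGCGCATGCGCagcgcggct
Ndufs8, rose, GABP: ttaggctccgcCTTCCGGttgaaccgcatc
Cox8a, fell, GABP, across the start site: tttccgaaataCTTCCGGctcgggcgtccg
Cox8a, fell, GABP, after the start site: tcagcgccggaaCTTCCGGctggttcggcc
Ndufs6, fell, YY1: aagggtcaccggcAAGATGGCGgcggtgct
Ndufs4, fell, YY1: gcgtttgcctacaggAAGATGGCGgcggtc
Motifs were thus found in members of both directions: 3 of the 5 risen members with a window held one, as did 3 of the 4 fallen members and 23 of the 58 that did not pass. A match is a run of letters and not a measured binding site.

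Complex I is the largest of the complexes, with a matrix arm that takes electrons from NADH and a membrane arm that pumps protons. Of its 36 tested subunits 4 rose (11.1%, against 6.24% of all names), 2 fell (5.56%, against 10.5%) and 30 did not pass. In sign, 32 had a negative log2 fold change (88.9%, against 68% of all names), with a median of -0.28 over the complex.

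Ndufa11, a membrane-arm accessory subunit that helps hold the complex to its supercomplex partners, had 1.37, 1.15 and 1.30 on the control arrays and 2.49, 2.41 and 2.33 on the phenobarbital arrays. It rose by 1.14 ± 0.11 (limma, adjusted p = 0.00384), or 2.2-fold (1.83 to 2.63). Ndufa10, an accessory subunit related to nucleoside kinases, had 1.80, 2.03 and 1.89 in controls and 2.82, 2.79 and 2.86 with phenobarbital. Both genes had tight groups that lay well apart. Ndufa10 rose by 0.92 ± 0.10 (adjusted p = 0.00628). Ndufs8, a core subunit that carries a pair of iron-sulfur clusters, had 1.35, 1.35 and 1.37 in controls and 2.30, 2.25 and 2.16 with phenobarbital. It rose by 0.88 ± 0.09 (adjusted p = 0.00538), and its 3 control values were nearly equal.

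Leaving aside the slide as a fixed block, Ndufa11 passed under each of 18 other settings (values of 1.04 to 1.23 with that block included), and Ndufa10 and Ndufs8 under 17 each, all but the replicate block. Within slide 1, which held control replicate 1 and all phenobarbital arrays, the log2 fold changes were 1.04 for Ndufa11 (limma with the slide as a block, adjusted p = 0.0428, with a range over the settings of 0.00124 to 0.0482), 1.02 for Ndufa10 (0.0413, range 0.00213 to 0.0562) and 0.89 for Ndufs8 (0.0582, range 0.00165 to 0.0582). These within-slide values rest on control replicate 1 alone, and the fit takes the spread between arrays of a gene from the 3 phenobarbital arrays, so their p-values hold no control spread. Each of these 3 genes was read by 1 probe only.

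The falls in complex I were smaller. Ndufs6, an accessory subunit that binds zinc and is needed late in assembly of the matrix arm, had 6.35, 6.48 and 6.32 in controls and 5.94, 6.05 and 5.77 with phenobarbital. It fell by 0.46 ± 0.12 on the log2 scale (limma, adjusted p = 0.0433), but had -0.16 with quantile normalization and did not pass there (adjusted p = 0.302, the highest of a range from 0.016). Ndufs4, an accessory subunit whose loss in people causes Leigh syndrome, had 4.37, 4.33 and 4.34 in controls and 3.96, 4.05 and 3.85 with phenobarbital. In both genes every phenobarbital array lay below every control array. Ndufs4 fell by 0.40 ± 0.10 (adjusted p = 0.0435), which is 0.758-fold (0.641 to 0.896), but had -0.22 and did not pass with quantile normalization (adjusted p = 0.139, in a range of 0.0185 to 0.23). Each of these falls passed under 6 of 19 other settings.

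The complex I subunits that did not pass had log2 fold changes between -0.47 and -0.02. The lowest was that of Ndufc1, a small membrane-arm subunit, which had 5.42, 5.30 and 5.49 in controls and 5.11, 5.09 and 4.62 with phenobarbital (-0.47 ± 0.16, limma, adjusted p = 0.0917). The nearest to 0 was that of Ndufa9, which sits beside the ubiquinone-binding site, with 3.70, 3.62 and 3.67 in controls and 3.57, 3.73 and 3.63 with phenobarbital (-0.02 ± 0.10, adjusted p = 0.923). Ndufs1, Ndufs3, Ndufv1, Ndufv2 and Ndufs7, core subunits of the matrix arm that did not pass, had -0.38, -0.26, -0.23, -0.14 and -0.06. Ndufb9 was fitted without phenobarbital replicate 3, where its spot was an outlier (-0.21 ± 0.12, n = 3 and 2).

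Complex II has 4 subunits, none encoded in mitochondrial DNA. None of the 4 passed (limma; at an unadjusted p below 0.05, 2 were lower and 0 higher, against 25.4% and 10.3% of all names). All had a negative log2 fold change, as had 68% of all names, with a median of -0.27 over the complex. Sdhd, a membrane anchor, had 5.10, 5.13 and 5.12 in controls and 4.82, 4.80 and 4.50 with phenobarbital (-0.40 ± 0.12, adjusted p = 0.0655). Its groups did not overlap, and phenobarbital replicate 3 was the lowest. Sdhc, the other anchor, had 4.11, 4.01 and 4.10 in controls and 3.97, 4.03 and 3.63 with phenobarbital, so that its groups overlapped (-0.20 ± 0.13, adjusted p = 0.332). Sdhb, which carries iron-sulfur clusters, and Sdha, the flavoprotein that oxidises succinate, had -0.31 ± 0.13 and -0.23 ± 0.13.

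In complex III, 1 of 8 subunits rose, 1 fell and 6 did not pass, with a median of -0.29. The core proteins Uqcrc1 and Uqcrc2 had log2 fold changes of 0.88 and -0.28, and Uqcrfs1, the Rieske iron-sulfur protein, had -0.20. Cyc1, cytochrome c1 of the same complex, has a name outside the rule and is counted below with the electron transfer genes. Its value was -0.03 ± 0.12 and did not pass. Uqcrc1, a structural core protein, had 2.88, 2.26 and 3.02 in controls and 3.60, 3.68 and 3.51 with phenobarbital. All phenobarbital arrays were higher, by a margin that control replicate 2, the lowest array, widened. It rose by 0.88 ± 0.21 (limma, adjusted p = 0.0381), and its value was 0.65 without control replicate 2 and 0.72 within slide 1, where it did not pass (adjusted p = 0.0918, range over the settings 0.0203 to 0.114) in the fit without control spread.

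Uqcrb, a small subunit next to the ubiquinone-binding site, had 5.50, 5.57 and 5.63 in controls and 5.04, 5.10 and 4.81 with phenobarbital. It fell by 0.58 ± 0.12 on the log2 scale (adjusted p = 0.026), or 0.668-fold (0.55 to 0.81), the lowest value in the complex. Its other probes gave -0.63 ± 0.15 and -0.63 ± 0.14, and all 3 probes passed when every probe was tested. With quantile normalization it had -0.36 and did not pass (adjusted p = 0.0537, in a range of 0.00861 to 0.201), and it passed under 9 of 19 other settings. The other small subunits, Uqcrq, Uqcr11, Uqcrh and Uqcr10, had -0.41, -0.36, -0.29 and -0.26 and did not pass.

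Complex IV had the lowest median of the 5 complexes, -0.40. Of its 17 tested subunits 4 fell, 13 did not pass and none rose (limma; at an unadjusted p below 0.05, 11 were lower and 0 higher, 64.7% and 0% against 25.4% and 10.3% of all names). Its share of falls, 23.5%, stands on 4 genes, against 10.5% of all names. Among names with a mean signal of 4 or more, where most of its tested members lie, 24.6% fell. With quantile normalization its median was -0.20, those of the other complexes were -0.07 to -0.03, and 2 of its members fell. Without control replicate 1 complex V had the lower median, -0.41 against -0.38. Whether the complexes differ was not tested.

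Cox6c, a common subunit with a single membrane helix, had 6.07, 6.05 and 6.12 in controls and 5.61, 5.58 and 5.18 with phenobarbital. It fell by 0.62 ± 0.14 on the log2 scale (limma, adjusted p = 0.0356), or 0.65-fold (0.513 to 0.824). Phenobarbital replicate 3 lay well below the other two, and without it the log2 fold change was -0.48. Cox8a, the smallest common subunit, had 7.20, 7.42 and 7.27 in controls and 6.82, 6.86 and 6.51 with phenobarbital. It fell by 0.56 ± 0.13 (adjusted p = 0.0385), by 0.48 ± 0.12 on its other probe, and had -0.18 after quantile normalization, where it did not pass (adjusted p = 0.281, the highest of a range from 0.0145). Its groups were separate on both probes.

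Ndufa4 and Ndufa4l2 carry names of complex I but belong, by current knowledge, with complex IV, and are counted there. Ndufa4l2, a paralogue known to be induced by low oxygen, had -0.08, -0.13 and -0.16 in controls and -0.51, -0.62 and -0.72 with phenobarbital. It fell by 0.49 ± 0.10 (limma, adjusted p = 0.0293) and kept this value, -0.49, under quantile normalization. With scaling to the array median Ndufa4l2 had -0.45 and did not pass (limma, adjusted p = 0.0815). Leaving aside the slide as a fixed block, it passed under 10 of 18 other settings. Ndufa4, the common form, had 4.34, 4.47 and 4.36 in controls and 4.02, 4.05 and 3.74 with phenobarbital, with a log2 fold change of -0.46 ± 0.12 just outside the threshold (adjusted p = 0.0514). Both paralogues thus lay lower on every phenobarbital array.

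Cox7a2l, a relative of Cox7a2 that joins complexes III and IV in supercomplexes, had 6.11, 6.20 and 6.10 in controls and 5.68, 5.63 and 5.48 with phenobarbital. It fell by 0.54 ± 0.10 (limma, adjusted p = 0.023), but had -0.32 and did not pass with quantile normalization (adjusted p = 0.0769, in a range of 0.00596 to 0.275). A further probe gave -0.53 ± 0.10, but the remaining probe of the gene, with 2.43, 2.62 and 2.35 in controls and 2.98 to 3.14 with phenobarbital, rose by 0.57 ± 0.12 (adjusted p = 0.0282 with every probe tested). The direction for Cox7a2l thus depends on the probe, and with the mean of its probes the gene had -0.17 and did not pass.

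The tissue-restricted forms of complex IV subunits were measurable beside their common partners, and none of their values passed. Cox4i2, the form known from lung and from low oxygen, had -0.22 ± 0.20 and its partner Cox4i1 -0.30 ± 0.11. The muscle forms Cox6a2 and Cox7a1 had -0.22 ± 0.17 and -0.25 ± 0.12, and their partners Cox6a1 and Cox7a2 had -0.40 ± 0.11 and -0.38 ± 0.11. With quantile normalization Cox6a1 had 0.07, so no direction can be given for it. Cox6b2, known from testis, ranged from -0.27 to 1.45 over the control arrays and from -0.33 to 0.01 over the phenobarbital arrays, and its value of -0.67 ± 0.42 was far from the threshold (adjusted p = 0.288). It was the lowest of all members, a rank that rests on control replicate 2: without that array Cox6b2 had -0.19 and Cox6c -0.64. Without control replicate 3 Cox6b2 had -1.05. Its partner Cox6b1 had 2.75, 2.57 and 2.56 in controls and 2.93, 2.82 and 2.82 with phenobarbital, the single positive value of the complex (0.23 ± 0.11, adjusted p = 0.172). Cox7b, the partner of the untested Cox7b2, had -0.40 ± 0.14. Whether the pairs differed was not tested.

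In complex V, 1 of 17 subunits rose, 1 fell (5.88% each, against 6.24% and 10.5% of all names) and 15 did not pass. In sign, 16 had a negative log2 fold change (94.1%, against 68% of all names), with a median of -0.31 over the complex. Atp5d, the delta subunit of the catalytic head's central stalk, had 3.85, 3.81 and 3.90 in controls and 4.34, 4.36 and 4.11 with phenobarbital. It rose by 0.42 ± 0.11 (limma, adjusted p = 0.0481), was the one member of the F1 part to do so, and passed under 7 of 19 other settings. The remaining F1 subunits Atp5e, Atp5c1, Atp5b and Atp5a1 had -0.57, -0.50, -0.31 and -0.26 and did not pass. The epsilon subunit Atp5e, which sits beside delta on the same stalk, had 6.19, 6.42 and 6.28 in controls and 5.92, 5.94 and 5.34 with phenobarbital (adjusted p = 0.082). The values of these neighbouring subunits thus had opposite signs, but that of Atp5e did not pass. Each was read by 1 probe, and the probes differ in brightness.

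Atp5mpl, a small membrane proteolipid of the enzyme, had 5.81, 5.87 and 5.80 in controls and 5.43, 5.41 and 5.12 with phenobarbital. It fell by 0.51 ± 0.12 (limma, adjusted p = 0.0389), or 0.705-fold (0.576 to 0.861), but had -0.31 and did not pass with quantile normalization (adjusted p = 0.0764, in a range of 0.0151 to 0.231). The 3 genes that encode the same mature c subunit of the rotor ring, Atp5g1, Atp5g2 and Atp5g3, had -0.23 ± 0.13, -0.43 ± 0.12 and -0.48 ± 0.16, and none passed (at an unadjusted p below 0.05, 2 were lower and 0 higher). Under quantile normalization Atp5g1 had 0.03 and Atp5g2 0.00, so no direction can be given for these. All 4 subunits of the peripheral stalk, Atp5h, Atp5j, Atp5o and Atp5pb, had groups that did not overlap, with -0.50, -0.42, -0.37 and -0.31, and none passed (at an unadjusted p below 0.05, 4 were lower and 0 higher). Phenobarbital arrays also lay below all control arrays for 32.4% of all names, for 52.4% of those with a mean signal of 4 to 6, where 3 of these subunits lie, and for 84.5% of those at 6 and above, where Atp5h lies. Atp5md, a subunit that holds ATP synthase dimers together, had the widest control spread of the complex, with 4.90, 6.08 and 6.13 against 5.74, 5.75 and 5.60 with phenobarbital.

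The 8 falls were close to the threshold, with adjusted p-values of 0.023 to 0.0435, and rested on the full set of arrays. No member fell when any array other than control replicate 2 was left out (limma; 26 to 44 members, 31.7% to 53.7%, were then lower at an unadjusted p below 0.05, against 18.4% to 21.6% of all names), and 4 fell without control replicate 2. With the slide as a block 3 members rose and none fell (4.88% of members and 13.3% of all names lower at an unadjusted p below 0.05), and with the slide as a random block 5 rose and 3 fell. All 14 members that passed kept their sign under each of the 19 other settings.

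The array values of the members share a pattern within the phenobarbital group. Phenobarbital replicate 3 was the lowest of its group for 76 of the 81 members measured on all arrays (93.8%, against 45.8% of all names) and the lowest of all 6 arrays for 69 (85.2%, against 33.9%). The median of its differences from the mean of phenobarbital replicates 1 and 2 was -0.26 over the members, and that of replicates 1 and 2 from the control mean was -0.22. The spread between arrays was accordingly larger with phenobarbital: the median SD was 0.168 with phenobarbital and 0.0844 in controls over the members, but 0.156 and 0.178 over all names, and 66 of 82 members had the larger SD with phenobarbital. The pattern was also present, though smaller, in other genes with bright probes: among the 3027 names with a mean signal of 4 or more, phenobarbital replicate 3 was the lowest of its group in 79% and lay 0.17 below the other two at the median, and for the 66 members in that range these values were 100% of the 65 measured on all arrays and 0.28.

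**Figure D2:**
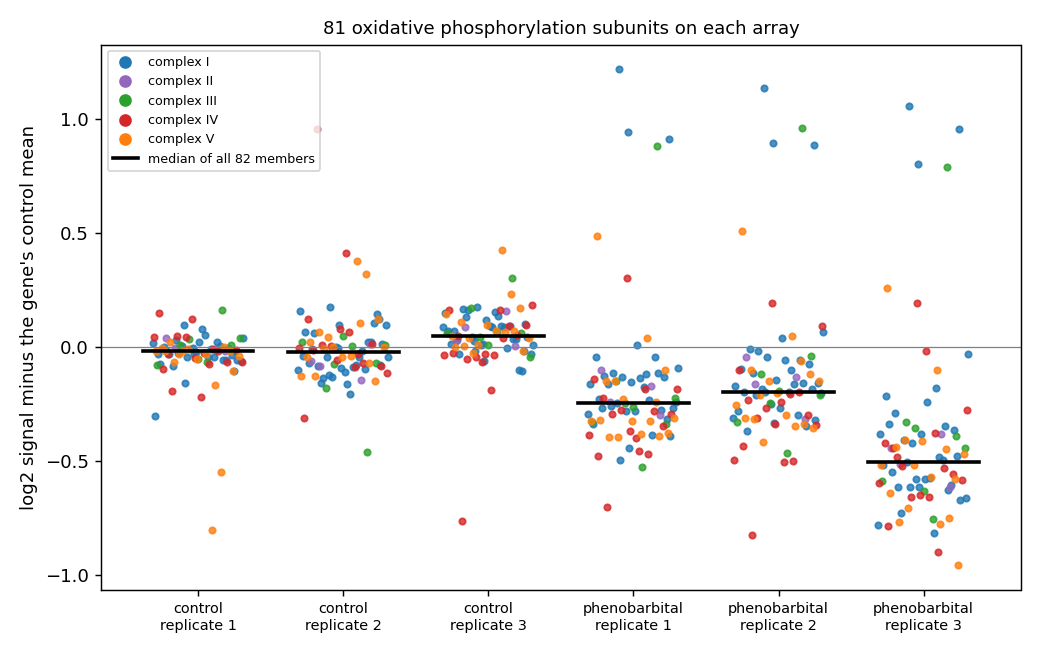
Log2 signal of 81 of the 82 tested subunits minus its own mean over the control arrays (vertical axis), for the 6 arrays, with points coloured by complex and a black bar at the median of all 82. The bars of phenobarbital replicates 1 and 2 lie below the control arrays and that of phenobarbital replicate 3 is the lowest.

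The direction of the members also followed the brightness of the probe. Of the 6 members that rose, 5 were among the 16 with a mean signal under 4, a range in which 6.82% of all names rose. Of the 66 members with a mean signal of 4 or more, 65 were below 0 in log2 fold change, 7 fell (10.6%) and Atp5d rose (1.52%). Of the 3027 names in that range 24.6% fell and 1.98% rose, and 85.3% of those at 4 to 6 and 94.5% of those at 6 and above were below 0. Over all names the median log2 fold change went from -0.11 for a mean signal below 0 to -0.25 for a mean signal of 4 to 6 and -0.39 for 6 and above. The members in these last ranges had medians of -0.31 (46 members) and -0.39 (20 members). In the range of 6 and above 44.8% of all names fell, and 2 of the 20 members did. Before scaling, control arrays had a 75th percentile of 1116 to 1291 signal units and phenobarbital arrays of 1803 to 1862. The part of signal and scaling in the members' values was not tested, other than by the settings given above.

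**Figure D3:**
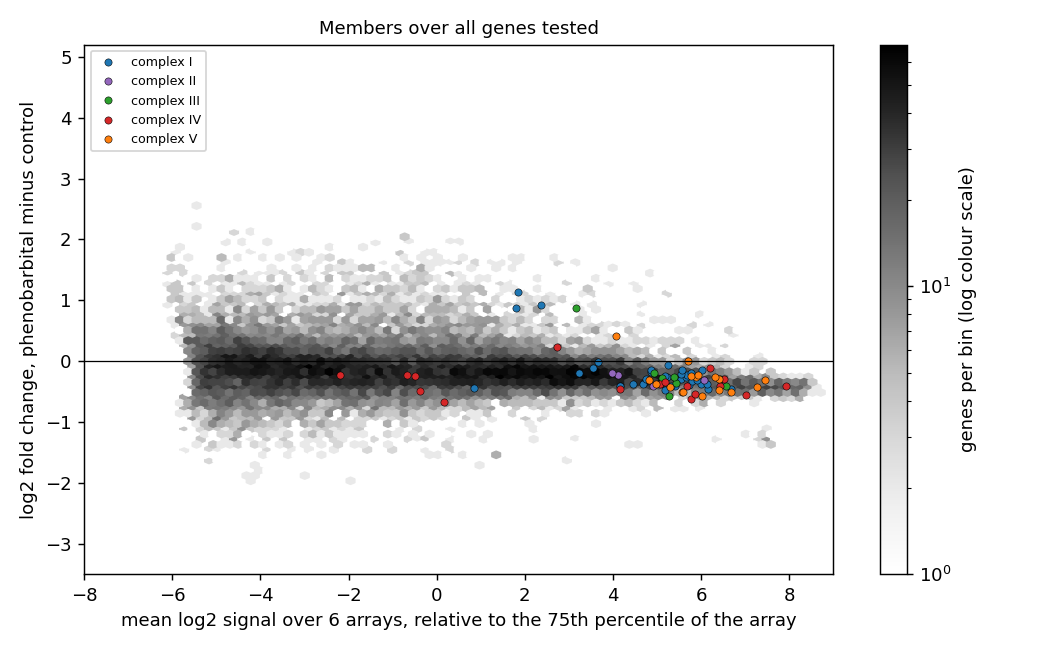
Log2 fold change (vertical axis) against the mean log2 signal over the 6 arrays (horizontal axis, relative to the 75th percentile of the array) for all 25304 names, as grey bins on a log colour scale, and for 81 of the 82 subunits as points coloured by complex. Most subunits lie on the right, inside the band of bright genes whose median falls to -0.39, and the risen subunits lie at a mean signal of about 4 or less.

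Several members were read by more than 1 probe, which gives a check on direction within a gene. Of the 22 members with several tested probes, 17 had the same sign on all of them. The share with probes of opposite sign was 22.7%, against 45.1% of the 3980 genes with several tested probes. The probe used for each of the 22 genes, the brightest, had a negative log2 fold change in every case. Of the 29 further probes 24 were negative, 5 fell and 3 rose when every probe was tested. Of all 34673 probes tested so, 8.74% fell and 6.97% rose. The falls were on further probes of Uqcrb, Cox8a, Cox7a2l and Atp5c1, and the brightest Atp5c1 probe did not pass.

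The 3 rises were on probes of Sdhb, Ndufv3 and Cox7a2l. The second Sdhb probe had 2.73, 2.60 and 2.80 in controls and 3.74, 3.79 and 3.64 with phenobarbital, a rise of 1.01 ± 0.11 (limma, adjusted p = 0.00467), while the brightest had 6.22, 6.14 and 6.31 against 5.98, 6.06 and 5.71. The second probe of Ndufv3, an accessory subunit of the NADH-binding tip, had -1.33, -1.41 and -1.38 in controls and -0.51, -0.46 and -0.35 with phenobarbital, a rise of 0.93 ± 0.10 (adjusted p = 0.0049), against -0.24 ± 0.16 on its brightest. For these genes the tested probe and the other one thus disagreed beyond their spread between arrays. Ndufb11 and Uqcr10 had further probes at 0.64 ± 0.25 and 0.32 ± 0.10 that did not pass. Members whose probes agreed included Cox8a, Uqcrb and Atp5l, the last with 5 probes between -0.44 and -0.26.

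**Figure D4:**
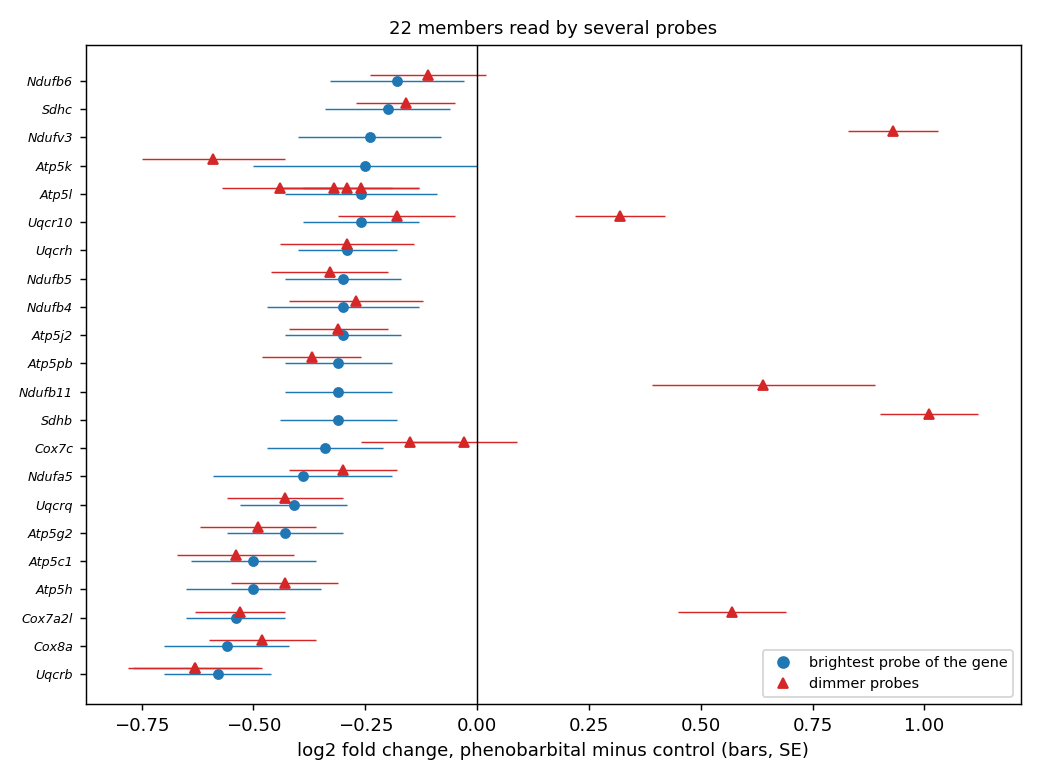
Log2 fold change (horizontal axis) of every tested probe of the 22 subunits read by several probes, with bars of 1 SE. Blue circles are the brightest probe of each gene, all left of 0, and red triangles the dimmer probes, of which those of Sdhb, Ndufv3, Ndufb11, Cox7a2l and Uqcr10 lie to the right.

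Genes that build, feed or control the respiratory chain were described from lists. Of 43 tested assembly factors, 2 rose, 2 fell and 39 did not pass, with a median of -0.17. The complex I assembly factor Ndufaf3 rose by 0.88 ± 0.10 (limma, adjusted p = 0.00649) and Uqcc1, which helps build complex III, by 0.58 ± 0.10 (0.0196). Ttc19, a further complex III factor, fell by 0.52 ± 0.10, but had -0.17 and did not pass with the mean of its probes. Cox11, which delivers copper to complex IV, fell by 0.47 ± 0.11. Rises and falls were thus 4.65% of this list each, against 6.24% and 10.5% of all names. In sign, 33 of the 43 were negative (76.7%, against 68% of all names). At an unadjusted limma p below 0.05, 20.9% were lower and 6.98% higher, against 25.4% and 10.3% of all names.

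Of 15 genes of coenzyme Q synthesis and electron transfer, 3 rose, 1 fell and 11 did not pass, with a median of -0.14. Rises were 20% and falls 6.67% of this list, against 6.24% and 10.5% of all names. Coq5, a methyltransferase of coenzyme Q synthesis, had -2.58, -2.73 and -2.49 in controls and -0.53, -0.65 and -0.24 with phenobarbital, a rise of 2.12 ± 0.14 (adjusted p = 0.00225). Coq9, a lipid-binding protein of the same pathway, rose by 1.21 ± 0.11 and Pdss2, which makes its isoprenoid tail, by 0.84 ± 0.10. These risen genes had a mean signal below 0, a range in which 7.44% of all names rose. Coq8a, a kinase-like protein of the pathway, fell (limma, adjusted p = 0.028). It had no phenobarbital array well above background and was at least 1.73-fold lower there, measured against the dimmest signals above background on those arrays (measured means -5.16 in controls and -6.13 with phenobarbital). Cytochrome c, Cycs, had -0.36 ± 0.17 and did not pass.

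Among 22 regulators of mitochondrial biogenesis and keepers of mitochondrial DNA, 2 rose, 2 fell and 18 did not pass, with a median of -0.24. Rises and falls were 9.09% of this list each, against 6.24% and 10.5% of all names. Twnk, the mitochondrial DNA helicase, and Polg, the mitochondrial DNA polymerase, rose by 1.28 ± 0.11 and 0.78 ± 0.10 (limma, adjusted p = 0.00305 and 0.00913). Ppargc1a, a coactivator that induces respiratory genes, fell by 0.56 ± 0.11 (0.0258). Tfam, which packs and transcribes mitochondrial DNA, fell by 0.34 ± 0.09 (0.0481), but had 0.01 with the mean of its probes. The factors whose motifs were searched did not pass: Gabpa had -0.30 ± 0.12, Nrf1 -0.23 ± 0.11, Esrra -0.22 ± 0.19 and Yy1 -0.21 ± 0.09. Of 9 genes of ATP export and related carriers none passed (limma; at an unadjusted p below 0.05, 4 were lower and 0 higher, against 25.4% and 10.3% of all names). Among them Atpif1, the inhibitor of ATP synthase, had -0.49 ± 0.13 and Slc25a4, an ADP/ATP carrier, had -0.33 ± 0.14. The 13 subunits encoded in mitochondrial DNA could be matched to no probe and are not analysed here.

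Markers of several other cell types differed between the groups, while the summed level of the microglial markers overlapped. All 8 progenitor markers, among them Pax6, Sox2 and Nes, were above background on every array, in keeping with the label of the cells, and 1 rose (Emx2) and 1 fell (Vim). The summed level of these progenitor markers was also lower with phenobarbital, 402 to 447 on control and 314 to 360 on phenobarbital arrays. The 8 neuron markers were above background as well: 5 fell, and their summed level, in multiples of the 75th percentile, was 239 to 268 on control and 150 to 183 on phenobarbital arrays. Of the 8 erythroid markers 5 fell (summed level 1060 to 1730 against 698 to 787), and of 8 markers of mural cells and meninges 6 fell (54.9 to 59.6 against 30.9 to 37.4). Of 8 endothelial markers 4 fell (84.4 to 89.8 against 50.7 to 60), and 1 that did not pass lay higher on every phenobarbital array. Of 8 microglial markers 3 fell and 1 rose (8.47 to 10.9 against 8.7 to 11.4). Of 7 choroid plexus markers 5 rose (2.41 to 4.56 against 12.3 to 23.6), with Kcne2 above background on no control array. Over all names 10.5% fell and 6.24% rose, and of those with a mean signal of 4 or more 24.6% and 1.98%. The part of these cells in the members' values was not tested.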

How the data were processed

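Scans of the 1-colour arrays were quantified by the authors with Agilent Feature Extraction 10.7.3.1, per the file headers (10.7 per the submitters' processing notes), on an array annotation of build mm9, and each deposited spot value is a linear intensity after background subtraction within the array. The authors' deposited value table holds log2 values whose differences between arrays matched the scanner files to within 1.21e-06 (99th percentile), with each probe centred on an unknown constant. Its column medians were 0.08, 0.10 and 0.09 for control and -0.02, -0.09 and -0.08 for phenobarbital replicates 1 to 3. Probes were named through the accessions of the RefSeq gene table (GRCm38.p6, names only): 26582 of 55681 probes matched.

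Control spots and outlier spots (98 to 198 per array) were left out, and no other spot was saturated. The processed signal was put on the log2 scale and the 75th percentile of its array was subtracted. A probe was kept if well above background (62.8% to 68.7% of spots) on every array of at least 1 group, which left 34673, and the brightest probe per gene was tested with lmFit and eBayes of limma 3.58.1 (R 4.3.3), two-sided, with a threshold of 0.05 on the adjusted p over 25304 names. The fit was tested on simulated data, with 100 of 25304 genes changed by 1 log2 unit and 100 by 2. It recovered 49 and 84 of them, with 4 false calls. Values of 1 member and 1 marker gene count in the totals but are not reported singly here. Precision is limited by the number of arrays.

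The members, gene lists, motifs and other settings were chosen with earlier results of these data known. Named are the members that passed, the extremes of each complex, paired isoforms, and up to 4 passing genes per list, or its 2 brightest; further members are named to fix a count or role and were chosen after their values were seen. Normexp used median spot signals, since the files hold no means. Slide 1 held control replicate 1 and the phenobarbital arrays, slides 2 and 3 the other control arrays, and scan dates split them likewise.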

Additional observations from a re-analysis of the deposited data

How the results depend on the processing

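The 6 rises stood at 4 to 8 in the alternatives other than 2 with the replicate block and 3 with the slide as a fixed block, and at 4 to 5 when an array was left out. The 8 falls became 21 with normexp, 32 with a trended variance prior, 2 with quantile normalization, 4 with the percentile over probes above background on all arrays, 3 with the slide as a random block, and 0 with scaling to the array median, without a filter on dim probes, with the replicate block or with the slide as a fixed block (20, 39, 26 and 4 members were lower at an unadjusted limma p below 0.05); they were 0 to 4 when an array was left out. The median of the members minus that of all names was -0.02 with quantile normalization and -0.20 to -0.08 when an array was left out. With quantile normalization 26 members had a positive log2 fold change, among them Cox6a1 (0.07), Atp5g1 (0.03) and Atp5g2 (0.00); Tfam had 0.01 with the mean of its probes. The median of all names was -0.16 and moved to -0.06 with quantile normalization. The replicate numbers did not pair the arrays (correlations of same-numbered deviations of 0.08, -0.16 and -0.35; 1 of 3 control arrays correlated best with its own number), and the replicate block reduced the names that passed from 1580 to 270 rises and from 2654 to 25 falls. The share of rises among all names that passed was 37.3%, and 24.4% with normexp, 54.6% with quantile normalization, 58.4% with scaling to the array median and 59.4% with the percentile over probes above background on all arrays. The cause of these changes was not tested.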
